A study of Rattus norvegicus with 12 samples.

Results

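The genes described here build the actin cytoskeleton and the contractile apparatus of the cell. They were taken from a list of 43 genes, which was chosen with earlier results of these data known. Every probe set of the array annotated with one of these genes as its only symbol was used. By this rule 41 of the 43 genes were measured, by 81 probe sets, out of 14213 genes and 31042 probe sets in all. They comprise 19 genes of the smooth muscle type, such as Acta2 and Tagln, and 22 of 24 general actin-binding genes, such as Cnn2 and Vcl. Actb and Myl6 had only probe sets annotated with several symbols, and their levels were not analysed here.

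The cultured rat cells fell into 4 groups, with 3 plates in each, all grown in medium with serum. The tumorigenic cells were WB311, exposed for 24 hr to 50 nM rapamycin, an inhibitor of the mTOR kinase, or to the DMSO vehicle. The other cells were WB-F344, a diploid epithelial line from the liver of a normal adult male Fischer rat, with the same exposures. WB311 arose from WB-F344 spontaneously in culture and is resistant to growth inhibition by rapamycin, whereas WB-F344 is sensitive. Each line is 1 line, so that the plates of a group are repeat cultures and every p-value measures the spread between plates only. The lines also differ in growth, with doubling times in the labels of 15.5 hr for WB311 and 42 hr for WB-F344. The array was the Affymetrix Rat Genome 230 2.0, and values are intensities that are comparable between arrays for 1 probe set but not between probe sets.

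Actin filaments give the cell its shape and its pull on the surroundings. Filaments are bundled by alpha-actinins, cross-linked by filamins, wrapped by tropomyosins, calponins, transgelins and caldesmon, and moved by myosin II. They end at focal adhesions, where talin, vinculin, paxillin and zyxin couple them to integrins. Many of these genes carry a CArG box, the site bound by serum response factor, encoded by Srf, and its cofactors of the myocardin family. Some of these cofactors are released when monomeric actin is used up. In liver, genes of the smooth muscle type such as Acta2 are best known as marks of activated stellate cells and myofibroblasts, but cultured epithelial cells also express many of them.

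Probe sets were tested if they averaged 100 or more in any group of the comparison. It was called where its adjusted p from limma was under 0.05 and its fold change at least 1.2, and each gene is given by its brightest probe set. Of the 41 genes, 33 passed this filter on low values. The other 8 stayed under 100 in all 4 groups, and all belong to the smooth muscle type: Actg2, Cnn1, Myl9, Myh11, Tpm2, Lmod1, Mylk and Synpo2. Among these are Myh11 and Cnn1, myosin heavy chain and calponin of differentiated smooth muscle, at mean intensities per group of 66.4 to 82.9 and 16.5 to 19.0. In RNA from whole cultures, fewer cells that express a gene and less of its RNA per cell cannot be told apart.

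The WB-F344 plate numbered 2 stood apart in both treatments. Its 3′ minus 5′ log2 difference for the Gapdh control was 0.17 with rapamycin and 0.34 with vehicle, against -0.12 to -0.04 in the other 4 WB-F344 plates. For the beta-actin control it was 0.62 and 1.04 on plate 2, against 0.214 to 0.255 on the other 4. The lines differed as well, since all WB311 arrays had 0.376 to 0.488 for beta-actin, between these values. For Gapdh the WB311 arrays had -0.11 to -0.04. The part of this shift in the differences between the lines was not tested. Plates varied less in WB311 than in WB-F344. Over probe sets that averaged 100 or more in any group, the median log2 SD in WB311 was 0.06 with rapamycin and 0.08 with vehicle. In WB-F344 it was 0.13 and 0.15. Among the 33 genes tested, plate 2 was the highest of the 3 WB-F344 plates in both treatments for 20 and the lowest in both for 4 (72.7% in all, against 66.8% of all 8222 genes tested in WB-F344). Calls of the brightest probe sets that changed without both plates are given with that value or their range. Of the cell type markers, 6 of 7 hepatocyte genes with a probe set were under 100 in every group, Alb averaging 31.9 to 33.5, as were Epcam and Cdh1. Of the epithelial genes, keratins were measured. Krt8 averaged 5608 ± 112 and 6103 ± 211 in WB311 with rapamycin and vehicle, and 2314 ± 145 and 2987 ± 202 in WB-F344 (SD, n = 3 each).

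The first comparison asked how the actin genes of the tumorigenic line differed from those of its parent without drug. In vehicle, 23 of the 33 genes tested were lower in WB311 and 6 were higher, while 4 were not called. The shares of 69.7% lower and 18.2% higher stand beside 28.7% lower and 27.8% higher among all genes tested. Since the list was chosen with earlier results known, this contrast is not an independent test. The median log2 difference was -0.61 over the 33 genes, and 0.00 over all genes tested. All 11 tested genes of the smooth muscle type were called, 8 lower and 3 higher, with a median of -0.66. Of the 22 general genes, 15 were lower and 3 higher, with a median of -0.53. Differences over 2-fold were found for 15 genes, 12 of them lower in WB311. The share of all genes that differed over 2-fold was not counted.

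**Figure D1:**
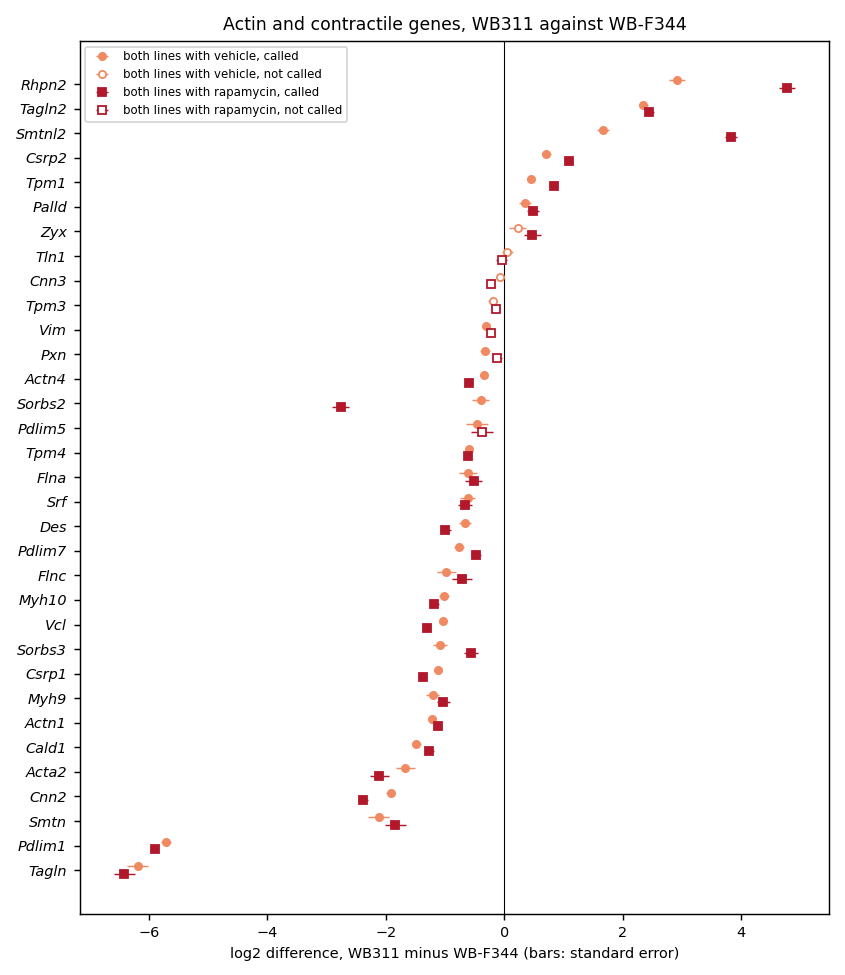
Log2 difference between WB311 and WB-F344 for the 33 tested genes, in order of the difference with vehicle (circles with vehicle, squares with rapamycin; bars are standard errors, filled marks are called). Most marks lie left of 0, with Tagln and Pdlim1 near -6, while Rhpn2, Tagln2 and Smtnl2 lie to the right in both treatments.

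Tagln, which encodes the actin-binding protein transgelin (SM22 alpha), was bright in WB-F344 and dim in WB311. Its intensity was 60.1, 102 and 68.3 on the WB311 vehicle arrays, against 5961, 4956 and 5517 on the WB-F344 vehicle arrays. The log2 difference was -6.19 (standard error 0.18, adjusted p = 2.16e-10). No WB311 array came near the WB-F344 arrays. Since the WB311 mean was under the filter of 100, the difference, nominally 73.0-fold, is only a rough size. Pdlim1, a PDZ and LIM domain protein that binds alpha-actinin, was likewise dim in WB311. It measured 73.9, 83.6 and 80.4 in WB311 and 4094, 4213 and 4094 in WB-F344 with vehicle, a log2 difference of -5.71 (standard error 0.08, adjusted p = 1.5e-12) that is again a rough size.

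Acta2, the smooth muscle alpha-actin, remained above 100 in both lines but was 3.18-fold lower in WB311. Its values were 284, 375 and 276 in WB311 and 999, 956 and 988 in WB-F344 (log2 difference -1.67, standard error 0.16, adjusted p = 5.49e-06). The probe set used is annotated with Acta2 alone, while 5 further probe sets that Acta2 shares with other symbols were not used. Smtn, the smoothelin of stress fibers, had 229, 221 and 259 in WB311 against 844, 1335 and 953 in WB-F344 (log2 difference -2.12, adjusted p = 1.43e-06). The WB-F344 plate numbered 2 gave the highest of these values, and all 3 WB-F344 arrays lay far above all WB311 arrays. Cald1, the caldesmon that restrains myosin on actin, was 3119, 2857 and 2837 in WB311 and 7925, 9293 and 7480 in WB-F344, a log2 difference of -1.48 (adjusted p = 3.35e-08).

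Des, which encodes the intermediate filament protein desmin, was dim in both lines. It had 87.0, 86.0 and 80.2 in WB311 and 125, 144 and 132 in WB-F344, a log2 difference of -0.66 (adjusted p = 0.000129) that is a rough size since WB311 was under 100. Srf itself was 261, 268 and 263 in WB311 and 360, 513 and 359 in WB-F344 (log2 difference -0.62, standard error 0.12, adjusted p = 0.00113). The gene of this transcription factor thus was lower in WB311, with groups that did not overlap. The difference was -0.45 without the WB-F344 vehicle plate numbered 2, and stayed called. With the mean over all 3 Srf probe sets, of which the other 2 are dimmer than 100 in mean, it shrank to -0.24 and was no longer called. Csrp1, a LIM domain protein of the smooth muscle lineage, was lower as well at -1.12, and Sorbs2 at -0.39 (adjusted p = 0.0333), a call that was lost without the plates numbered 2 (-0.22).

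Among the general genes, the calponin Cnn2 was the lowest in WB311 relative to WB-F344 after Pdlim1. It measured 991, 961 and 949 in WB311 and 3717, 3582 and 3639 in WB-F344 with vehicle, and was 3.77-fold lower (log2 difference -1.92, standard error 0.08, adjusted p = 3.58e-09). The spread within each line was small beside this difference. Cnn3, the third calponin, had means of 7307 ± 75.6 in WB311 and 7675 ± 351 in WB-F344 (SD, n = 3 each) and was not called (-0.07, adjusted p = 0.268). The calponins therefore did not move together. Of the alpha-actinins, which bundle filaments, Actn1 differed by -1.21 and Actn4 by -0.34. The heavy chains of non-muscle myosin II, Myh9 and Myh10, differed by -1.21 and -1.01. The filamins Flnc and Flna, which cross-link filaments into networks, were lower at -0.98 and -0.61.

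At focal adhesions, vinculin was lower in WB311. Vcl measured 3188, 3096 and 3438 in WB311 and 6504, 6720 and 6631 in WB-F344 with vehicle, a log2 difference of -1.03 (adjusted p = 1.05e-07). Vinexin, encoded by Sorbs3 and a binding partner of vinculin, differed by -1.08. Paxillin (Pxn) differed by only -0.33, and fell under the fold threshold at -0.24 without the WB-F344 plates numbered 2. Talin (Tln1) and zyxin (Zyx) were not called, at 0.05 (adjusted p = 0.646) and 0.23 (adjusted p = 0.187). The adhesion genes thus ranged between a clear difference for Vcl and Sorbs3 and none that passed the test for Tln1. Zyx depended on which plates entered: without both WB-F344 plates numbered 2 its difference was 0.39 and passed (adjusted p = 0.000103).

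Vim, the intermediate filament protein of mesenchymal and many cultured cells, differed little. It had 11999, 11616 and 11894 in WB311 and 14522, 15500 and 14103 in WB-F344 (log2 difference -0.31, standard error 0.05, adjusted p = 0.000458). The difference was small but larger than the spread between plates. Pdlim7 and Pdlim5, relatives of Pdlim1, were lower at -0.76 and -0.46 (adjusted p = 1.81e-05 and 0.0457). The Pdlim5 call was lost without any of 5 single arrays and under several other settings. Tpm4, a tropomyosin of stress fibers, was lower at -0.60, whereas Tpm3 was not called at -0.20.

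A smaller set of 6 genes was higher in WB311, against the direction of most. Tagln2, the transgelin of non-muscle cells, measured 3413, 3320 and 3226 in WB311 and 690, 605 and 669 in WB-F344, a 5.08-fold difference (log2 2.35, standard error 0.08, adjusted p = 5.34e-10). Tagln and Tagln2, encoding related proteins, therefore differed between the lines in opposite directions. Rhpn2, a scaffold protein with a PDZ domain, had 1086, 937 and 937 in WB311 and 120, 147 and 126 in WB-F344 (log2 difference 2.92, standard error 0.14, adjusted p = 1.13e-08). Smtnl2, a smoothelin-like protein, had 887, 890 and 915 in WB311 and 236, 331 and 287 in WB-F344 (log2 difference 1.67, standard error 0.10, adjusted p = 1.1e-07). Smtnl2 and Smtn thus also lay on opposite sides. Csrp2, the LIM domain relative of Csrp1, had 485, 498 and 522 in WB311 and 285, 312 and 322 in WB-F344 (log2 difference 0.71, adjusted p = 6.17e-06). The bundling scaffold palladin, encoded by Palld, was higher at 0.35 (adjusted p = 0.0125), a call lost without WB311 vehicle plate 1 (0.24) and with the methods' t-test (adjusted p = 0.102).

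**Figure D2:**
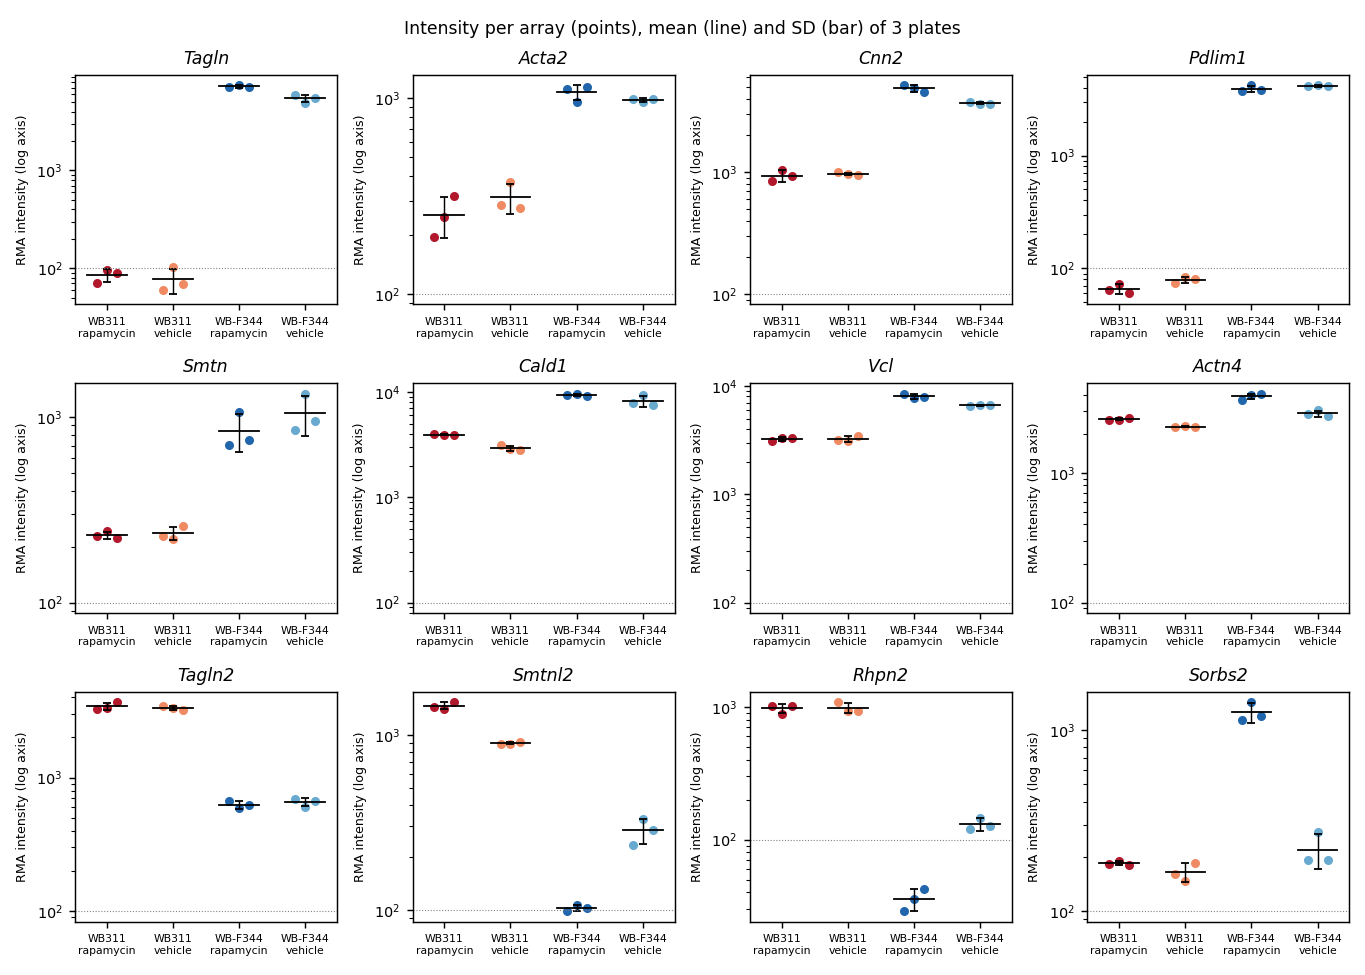
Intensity on each array (points; logarithmic axis) with the mean and SD of 3 plates for 12 genes in the 4 groups; the dotted line is the filter at 100. Tagln and Pdlim1 lie under it on nearly all WB311 arrays, Tagln2, Smtnl2 and Rhpn2 are higher in WB311, and Sorbs2 stands out only in WB-F344 with rapamycin.

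The sixth gene, Tpm1, gave a different answer for different probe sets. This alpha-tropomyosin gene makes many transcripts by alternative promoters, exons and 3′ ends, and 5 of its 7 probe sets were tested. The brightest, 1370287_a_at, measured 6712, 6609 and 6655 in WB311 and 4686, 5109 and 4763 in WB-F344 with vehicle (log2 difference 0.46, standard error 0.06, adjusted p = 6.75e-05). Probe set 1370288_a_at was also higher, at 0.70 (adjusted p = 0.000611). In contrast, 1371241_x_at measured 131, 128 and 139 in WB311 and 456, 535 and 567 in WB-F344, a log2 difference of -1.96 (adjusted p = 2.63e-08). Probe set 1368724_a_at was lower too, at -0.98 (adjusted p = 2.47e-06), and 1395794_at was not called at -0.21 (adjusted p = 0.0524). With the mean over all 7 probe sets the sign turned to -0.27 with vehicle. Which transcripts each probe set reads was not determined here, and a probe set whose name ends in x_at may also bind other transcripts. Of the 11 genes with over 1 tested probe set, Tpm1 was the only 1 with called probe sets in both directions.

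**Figure D3:**
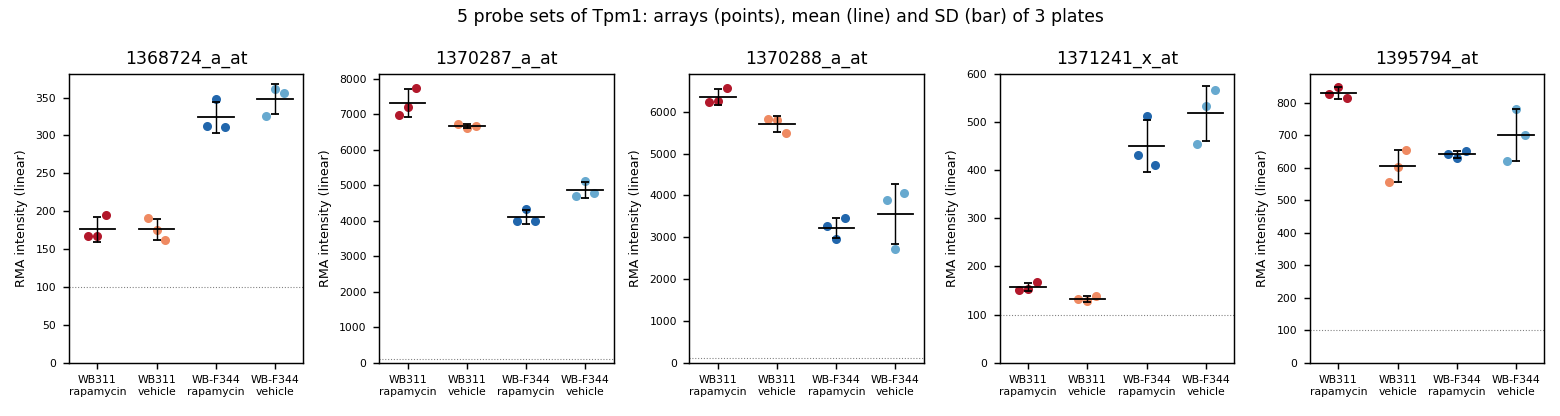
Intensity of the 5 tested Tpm1 probe sets on each array (points; linear axes that start at 0) with the mean and SD of 3 plates; the dotted line is the filter at 100. Probe sets 1370287_a_at and 1370288_a_at are higher in WB311, while 1368724_a_at and 1371241_x_at are higher in WB-F344.

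Other probe sets mostly pointed the same way as the brightest. The second probe sets of Actn1, Cald1, Pdlim7 and Smtn were called lower in WB311 as well, at -1.63, -1.94, -1.50 and -1.40, as were both further probe sets of Vcl. The second Smtnl2 probe set was higher at 1.27. Those of Flnc and Sorbs3 were not called (-0.51 and -0.24, adjusted p = 0.186 and 0.285), nor was that of Tpm4 (-0.43, adjusted p = 0.114). In each of these WB-F344 plate 2 was low. Flnc had 755, 352 and 760 in WB-F344 and 395 to 430 in WB311. Tpm4 had 4867, 2448 and 4539 against 2702 to 2883, and Sorbs3 179, 108 and 159 against 110 to 136. Plates 1 and 3 thus lay above all WB311 arrays. Fits of these probe sets without the plates numbered 2 are not given here. None of the 10 tested probe sets of Tpm3 was called between the lines with vehicle.

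Under rapamycin the lines were compared again, with other arrays for the group means but the same spread, estimated over all 12 arrays. Here 20 of the 33 genes were lower in WB311 and 7 higher, beside 26.8% lower and 33.9% higher among all genes tested. All 20 were among the 23 that were lower with vehicle, and all 6 genes that were higher with vehicle were higher again. Zyx was added to the genes that were higher at 0.47 (adjusted p = 0.0129), a call lost without WB-F344 rapamycin plate 1 or 3, while Pdlim5, Pxn and Vim were no longer called at -0.37, -0.12 and -0.21. For Pdlim5 this depended on the plates numbered 2, without which its difference was -0.62 and called (adjusted p = 7.38e-06), and it was also called with array weights (-0.52). The median log2 difference was -0.59 over the 33 genes and 0.06 over all genes tested. For the smooth muscle type it was -1.26 and for the general genes -0.49. The move of the first median from -0.66 with vehicle was not a shift of all its genes. Sorbs2 went from -0.39 to -2.76, but Cald1 from -1.48 to -1.26. Over the 11 genes of the smooth muscle type, the median difference between the responses of the lines was -0.05.

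Tagln measured 70.7, 96.3 and 89.7 in WB311 and 7099, 7488 and 7152 in WB-F344 with rapamycin (log2 difference -6.42, adjusted p = 1.39e-10). Pdlim1 had 63.7, 73.0 and 60.6 in WB311 and 3740, 4191 and 3819 in WB-F344 (-5.90, adjusted p = 1.15e-12). Both were under 100 on every WB311 array, so that these are rough sizes. Acta2 had 196, 248 and 318 in WB311 and 1120, 964 and 1142 in WB-F344 (-2.11, adjusted p = 6.61e-07). Des had 70.5, 82.9 and 89.0 in WB311 and 154, 177 and 150 in WB-F344 (-0.99, adjusted p = 4.23e-06), again a rough size. Srf had 283, 295 and 289 in WB311 and 422, 501 and 452 in WB-F344 (-0.66, adjusted p = 0.00061). Neither gene overlapped between the lines. Cnn2 had 842, 1037 and 922 in WB311 and 5138, 4908 and 4533 in WB-F344, which is 5.22-fold lower (-2.38, adjusted p = 5.58e-10). These genes were lower in WB311 whether or not the drug was present. Sorbs2, only 1.31-fold lower with vehicle, was now 6.76-fold lower, with 183, 190 and 179 in WB311 against 1133, 1425 and 1187 in WB-F344 (-2.76, standard error 0.14, adjusted p = 2.25e-08). Its groups were then far apart.

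Of the genes that were higher in WB311 with rapamycin, Rhpn2 had 1023, 888 and 1014 in WB311 and 28.9, 35.9 and 42.7 in WB-F344 (log2 difference 4.78, adjusted p = 1.67e-10), a rough size because WB-F344 was under 100. Smtnl2 had 1442, 1414 and 1540 in WB311 and 98.9, 107 and 102 in WB-F344 (3.84, adjusted p = 1.17e-10). In both genes the lines were far apart. Tagln2 had 3268, 3311 and 3679 in WB311 and 672, 588 and 620 in WB-F344 (2.45, adjusted p = 3.52e-10), close to its difference with vehicle. Csrp2 had 483, 496 and 513 in WB311 and 246, 240 and 214 in WB-F344 (1.09, adjusted p = 1.5e-07). Tpm1, by its brightest probe set, had 6974, 7199 and 7735 in WB311 and 3987, 4316 and 3995 in WB-F344 (0.83, adjusted p = 4.36e-07). The probe sets 1368724_a_at and 1371241_x_at of Tpm1 stayed lower in WB311 (-0.88 and -1.52), and 1395794_at, not called with vehicle, was higher (0.37, adjusted p = 0.00274).

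The next comparison asked which of these genes responded to rapamycin in the sensitive line. In WB-F344, 4 of 33 genes rose and 3 fell (12.1% and 9.09%, beside 7.71% and 17.2% of all genes tested). Over 2-fold were Sorbs2, which rose, and Rhpn2 and Smtnl2, which fell. The median log2 change was 0.13 over the 33 genes and -0.07 over all genes tested. The smooth muscle type counted 1 rise and 2 falls among 11 genes, and the general genes 3 rises and 1 fall among 22. Most of the set was not called, and the calls lay in both directions.

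Sorbs2 encodes an SH3 adaptor of stress fibers and Z-discs. It was 1133, 1425 and 1187 on the WB-F344 rapamycin arrays and 191, 272 and 191 on the vehicle arrays, a 5.78-fold rise (log2 2.53, standard error 0.14, adjusted p = 2.17e-06). The rise was far larger than the spread between plates, with the lowest rapamycin array over 4-fold above the highest vehicle array. Actn4 rose to 3675, 3982 and 4039 with rapamycin, against 2867, 3030 and 2723 with vehicle (log2 0.44, standard error 0.06, adjusted p = 0.000352). Cnn2 rose by 0.41, with 5138, 4908 and 4533 with rapamycin against 3717, 3582 and 3639 with vehicle (standard error 0.08, adjusted p = 0.00271). In each of these genes every rapamycin array lay above every vehicle array. Vcl had 8514, 7678 and 7876 with rapamycin and 6504, 6720 and 6631 with vehicle (log2 0.28, adjusted p = 0.00743). Its fold of 1.21 lay just above the threshold, and the call was lost without rapamycin plate 1 (0.23), with centred arrays (0.24), with only the WB-F344 arrays (adjusted p = 0.0597) and with the mean over the 3 Vcl probe sets (0.27, adjusted p = 0.166). Of the other probe sets, 1375538_at rose by 0.39 (adjusted p = 0.0144) and 1398476_at was not called (0.13, adjusted p = 0.809). The latter had 1367, 586 and 1387 with rapamycin and 1269, 627 and 1059 with vehicle, plate 2 being the lowest in both.

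Rhpn2 fell to 28.9, 35.9 and 42.7 with rapamycin, against 120, 147 and 126 with vehicle in WB-F344 (log2 -1.88, standard error 0.14, adjusted p = 1.07e-05). Since the rapamycin arrays were under 100, its size is rough, though the groups did not overlap. Smtnl2 fell to 98.9, 107 and 102 with rapamycin, against 236, 331 and 287 with vehicle (log2 -1.46, standard error 0.10, adjusted p = 9.36e-06). Its second probe set fell by 0.76. Csrp2 fell to 246, 240 and 214 with rapamycin, against 285, 312 and 322 with vehicle (log2 -0.39, adjusted p = 0.00221). All 3 of these genes were higher in WB311 than in WB-F344 with vehicle.

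Some genes passed the p threshold but not the fold of 1.2, namely Csrp1 (0.24), Cnn3 (0.22), Tpm1 (-0.24) and Vim (-0.17). Vim had 12911, 13535 and 12882 with rapamycin and 14522, 15500 and 14103 with vehicle in WB-F344. Tpm1 had 3987, 4316 and 3995 with rapamycin and 4686, 5109 and 4763 with vehicle. Neither gene overlapped between the groups. The best known smooth muscle genes were not called: Acta2 had 1120, 964 and 1142 with rapamycin and 999, 956 and 988 with vehicle (log2 0.13, adjusted p = 0.609), with overlapping groups. Des had 154, 177 and 150 with rapamycin and 125, 144 and 132 with vehicle (log2 0.26, adjusted p = 0.0674), without overlap. Srf had 422, 501 and 452 with rapamycin and 360, 513 and 359 with vehicle (log2 0.18, adjusted p = 0.323), with overlap.

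Tagln depended on how the spread was estimated. It had 7099, 7488 and 7152 with rapamycin and 5961, 4956 and 5517 with vehicle in WB-F344, without overlap (log2 0.41, adjusted p = 0.115). The fit over 12 arrays takes in the dim and variable WB311 values. With only the WB-F344 arrays the same change gave an adjusted p of 0.0365, and with the plate number as a block an adjusted p of 0.00959. That block was fitted because same-numbered WB-F344 plates deviated together. It left 6 genes higher and 5 lower in WB-F344, since Tagln and Tln1 (0.26, adjusted p = 0.00519) were then called higher, and Flnc (-0.36, adjusted p = 0.00153) and Smtn (-0.31, adjusted p = 0.00756) lower. Without both plates numbered 2, 8 genes were called higher, the added ones being Srf (0.28, adjusted p = 0.00333), Cald1 (0.28), Pdlim5 (0.30) and Tln1 (0.28). There were 5 lower, the added ones being Flnc (-0.37) and Smtn (-0.30). Over all genes tested, rises went from 634 to 853 and falls from 1416 to 1676 without those plates. The number of actin genes called higher also depended on scaling, being 9 with cyclic loess and 3 with arrays centred on their medians. Rises over all genes tested were 936 and 508 under these settings. Over all genes called in WB-F344, 69.1% were falls, against 52.6% with cyclic loess and 76.1% with centred arrays.

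In the resistant line the question was whether these genes respond at all. In WB311, 2 of 30 tested genes rose with rapamycin and 0 fell (6.67% and 0%, beside 1.91% and 2.35% of all genes tested). At an unadjusted p under 0.05 there were 7 genes, and 0 of these were below 0. No alternative fit called a fall either. The share of all genes at the unadjusted threshold, and its split by direction, was not counted. Tagln, Pdlim1 and Des were under 100 in both WB311 groups and were not tested. Smtnl2 rose to 1442, 1414 and 1540 with rapamycin, against 887, 890 and 915 with vehicle (log2 0.71, standard error 0.10, adjusted p = 0.00464). Its second probe set, 1377695_at, rose by 0.78 (adjusted p = 0.00256). The same gene that fell with the drug in WB-F344 thus rose in WB311, in both probe sets.

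Cald1 rose to 3989, 3890 and 3928 with rapamycin, against 3119, 2857 and 2837 with vehicle in WB311 (log2 0.42, standard error 0.08, adjusted p = 0.0145). The groups were well apart, but the adjusted p was 0.0346 to 0.0666 when single arrays were left out and the call was lost in 5 of these 6 cases. Its second tested probe set was not called (0.32, adjusted p = 0.622). Among the genes not called though without overlap between the groups were Sorbs3 (0.46, adjusted p = 0.0578), Actn1 (0.23, adjusted p = 0.0549) and Myh9 (0.37, adjusted p = 0.103). Further such genes included Flna, Zyx, Pdlim5, Actn4, Pxn and Tln1. The share of all genes without overlap was not counted. Without the WB-F344 plates numbered 2, which enter the shared spread, 7 genes were called higher in WB311. The further 5 were Flna, Myh9, Pdlim5, Sorbs3 and Zyx at 0.28 to 0.46. Over all 8155 genes tested, rises went from 156 to 463 and falls from 192 to 317 without those plates. The same 5 actin genes were added with only the WB311 arrays in the fit.

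Several genes gave no call in WB311. Acta2 was 196, 248 and 318 with rapamycin and 284, 375 and 276 with vehicle (log2 -0.31, adjusted p = 0.367), and the groups overlapped. Sorbs2, which rose so far in WB-F344, had 183, 190 and 179 with rapamycin and 161, 147 and 185 with vehicle (log2 0.17, adjusted p = 0.618). Rhpn2 had 1023, 888 and 1014 with rapamycin and 1086, 937 and 937 with vehicle (log2 -0.02, adjusted p = 0.973). The arrays of both genes overlapped between the treatments. Srf had 283, 295 and 289 with rapamycin and 261, 268 and 263 with vehicle (0.13, adjusted p = 0.661). Vim had 11278, 11083 and 11538 with rapamycin and 11999, 11616 and 11894 with vehicle (-0.07, adjusted p = 0.598), and here the treatments did not overlap for either gene. Tpm1 had 6974, 7199 and 7735 with rapamycin and 6712, 6609 and 6655 with vehicle, and Csrp2 483, 496 and 513 with rapamycin and 485, 498 and 522 with vehicle. Neither was called.

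The difference between the responses of the lines was tested directly. The change in WB311 minus that in WB-F344 was called for 6 of 33 genes, 4 above 0 and 2 below (12.1% and 6.06%, beside 8.66% and 3.87% of all genes tested). With cyclic loess 3 were above 0 and 5 below, while over all genes tested those above went from 750 to 627 and those below from 335 to 529. Smtnl2 differed by 2.17 (standard error 0.15, adjusted p = 2.13e-05), with a rise in WB311 and a fall in WB-F344. Rhpn2 differed by 1.86 (standard error 0.19, adjusted p = 0.000295) and Sorbs2 by -2.36 (standard error 0.20, adjusted p = 0.000118), both through a change in WB-F344 with no call in WB311. These calls were kept when any single array was left out. Tpm1 (0.38), Csrp2 (0.38) and Cnn2 (-0.47) differed less, with adjusted p of 0.0203, 0.0368 and 0.0211, and lost their calls without 4, 7 and 4 of the 12 single arrays. Probe set 1395794_at of Tpm1 also differed, by 0.58 (adjusted p = 0.0116), with 828, 850 and 814 against 556, 602 and 654 in WB311 with rapamycin and vehicle, and 643, 629 and 652 against 620, 782 and 701 in WB-F344. For Acta2, Srf, Des and Tagln the difference was not called (-0.44, -0.05, -0.33 and -0.23, adjusted p = 0.285, 0.917, 0.164 and 0.653). For Vcl it was -0.28 (adjusted p = 0.0778) by the brightest probe set and -0.56 (adjusted p = 0.0293) by 1375538_at. Without both WB-F344 plates numbered 2, the brightest Vcl probe set was called as well (-0.32, adjusted p = 0.0342), as were Actn4 (-0.28), Pdlim7 (0.29) and Sorbs3 (0.39), and Vcl was also called with cyclic loess (-0.32) and array weights (-0.30).

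**Figure D4:**
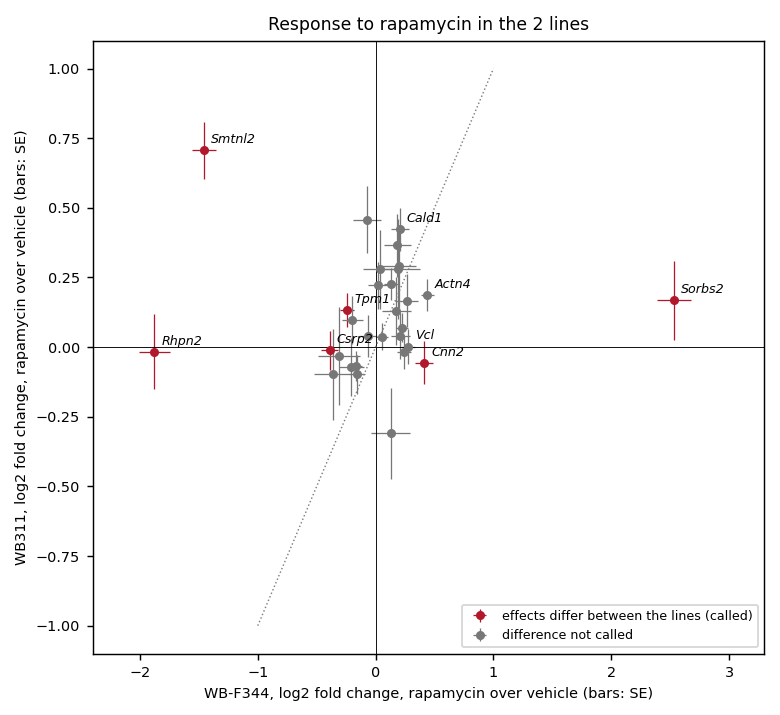
Log2 fold change with rapamycin in WB311 (vertical axis) against that in WB-F344 (horizontal axis, wider scale) for the 30 genes tested in both lines; bars are standard errors and the dotted line marks equal change. Sorbs2 and Rhpn2 spread along the horizontal axis, near 0 in WB311, and Smtnl2 lies in the quadrant of a fall in WB-F344 and a rise in WB311.

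The 250 bases upstream of the start are shown for the only searched members in which the CArG box, the Srf site, was found there. The box was searched on both strands, by exact match to its consensus, in windows of 250 bases before to 50 after the start from RefSeq (GRCr8). Of the 43 genes, 35 had an entry. The other 8, Actb, Tagln, Myl9, Myh11, Lmod1, Actn4, Sorbs2 and Sorbs3, were not searched. The box was found in 2 of 35 members (5.71%) and in 451 of all 27457 promoters (1.64%). Cnn2 had 1 box, beginning 71 bases before the start, and Srf had 2, beginning 81 and 61 bases before it. Capitals mark the boxes. The stretches are chr7:10370313-10370562 on the minus strand for Cnn2 and chr9:21923826-21924075 on the plus strand for Srf.
Cnn2: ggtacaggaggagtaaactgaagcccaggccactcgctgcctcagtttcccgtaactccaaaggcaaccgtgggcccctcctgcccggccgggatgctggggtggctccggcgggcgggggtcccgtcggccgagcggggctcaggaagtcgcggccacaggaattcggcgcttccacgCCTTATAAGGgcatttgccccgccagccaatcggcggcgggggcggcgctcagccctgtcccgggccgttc
Srf: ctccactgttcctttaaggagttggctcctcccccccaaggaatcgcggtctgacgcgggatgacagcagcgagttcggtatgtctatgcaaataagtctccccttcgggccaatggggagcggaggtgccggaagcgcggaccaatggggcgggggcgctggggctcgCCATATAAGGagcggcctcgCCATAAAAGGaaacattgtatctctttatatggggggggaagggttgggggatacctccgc
Both genes were lower in WB311 in both treatments, Cnn2 by more. The letters CATTCC, the core of the site for TEAD factors, were found on either strand (as CATTCC or GGAATG) in 10 of 35 members (28.6%), Acta2 among them, and in 13.9% of all promoters. A match of letters is not a bound site, and no match says only that the letters are not in this window. Stretches that differ from the box at 1 base were not counted. The Acta2 window holds such stretches, ccctatatgg and ccttgtttgg, so the search does not show that Acta2 lacks an Srf site.

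A further list of 36 genes describes how filaments are built and taken apart. Of 30 tested genes of actin assembly and turnover, 15 were lower and 8 higher in WB311 with vehicle (50.0% and 26.7%, beside 28.7% and 27.8% of all genes tested; median -0.15). The actin monomer-binding Tmsb4x was lower at -5.69 (82.2 ± 8.20 and 80.5 ± 12.5 in WB311 with rapamycin and vehicle, so that its size is rough) and the severing protein Cfl2 at -0.93, while the capping protein Capza2 was higher at 0.60. With rapamycin 10 were lower and 7 higher (33.3% and 23.3%, beside 26.8% and 33.9% of all genes tested), with Tmsb4x at -5.89, Msn, which ties actin to the membrane, at -1.19 and Cfl2 at -0.86. In WB-F344 the drug raised Pls3 (0.47) and Msn (0.30) and lowered Enah (-0.39), Coro1c (-0.40) and Wasf1 (-0.60). These 2 rises and 3 falls stand beside 7.71% and 17.2% of all genes tested. In WB311 0 of 29 were called by limma, beside 1.91% higher and 2.35% lower of all genes tested. Only 2 of the 29 had an unadjusted p under 0.05, and the share of all genes at that threshold was not counted. The response of Msn differed between the lines (-0.46, adjusted p = 0.024).

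Markers of other cell types differed between the lines as well. All 3 tested markers of mesenchymal cells, Col1a1, Col1a2 and Col3a1, were lower in WB311 with vehicle (-5.98, -4.20 and -4.75), and the other 6 of 9 were under 100 in all groups. The summed intensity over the 9 markers was 1525 to 1692 on WB311 and 35400 to 45460 on WB-F344 vehicle arrays. On rapamycin arrays it was 1808 to 1914 for WB311 and 26770 to 32540 for WB-F344. Since intensities are not comparable between probe sets and the other 6 markers were under 100, these sums reflect mainly the 3 collagens. In WB-F344 rapamycin lowered Col3a1 (-0.90) and Col1a1 (-0.50), with no call for Acta2 or Tagln, and in WB311 0 of the 3 were called with the drug. Among the keratins Krt7 was lower in WB311 with vehicle (-6.19) and Krt8, Krt18 and Krt19 were higher (1.03, 3.44 and 2.26). Krt7 was under 100 in WB311 and Krt18 and Krt19 in WB-F344, so that only the size for Krt8 is not rough. All 7 striated muscle markers with a probe set were under 100 in every group, as were 3 of 4 endothelial and 3 of 4 leukocyte markers. The exceptions were Tek, higher in WB311 with vehicle at 4.78 (a rough size, since WB-F344 was under 100), and Cd14, which rose with rapamycin in WB-F344 (0.99). The part of these markers in the differences of the actin genes was not tested.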

How the data were processed

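RNA from 12 plates (4 groups of 3) was hybridized to 12 arrays. The deposited values are linear intensities after the authors' normalization by Robust Multiarray Average (7.78 to 20499; array medians 59.5 to 62.9). The log2 was taken here. Symbols came from the platform annotation, updated through RefSeq: 20826 of 31042 probe sets had 1 symbol, 436 several and 9780 none, and 57 controls were used for RNA quality only. All 12 arrays were fitted as 4 group means with limma 3.58.1 in R 4.3.3 and moderated variances, on probe sets with a mean of at least 100 in 1 of the groups compared. P-values were Benjamini-Hochberg adjusted over all of these. The thresholds of 100, 0.05 and 1.2-fold follow the study's methods, whose t-test was an alternative. Each gene stands for its probe set of highest mean log2, and all background shares count genes by this rule. The fit was tested on simulated data with known changes. The number of arrays limits the precision.

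Values per array are given for the 4 largest rises and falls per comparison among called genes whose groups do not overlap, for all called differences between the responses, and for Acta2, Tagln, Srf, Vim, Des, Sorbs2, Rhpn2 and Smtnl2; of the other list, the 3 with the smallest p per comparison are named. Zyx, Flnc, Pdlim5 and further names were picked from their values. All members, lists, tests and alternatives were chosen with earlier results of these data known. Same-numbered vehicle and rapamycin plates correlated in their deviations at 0.561 to 0.871 in WB-F344 and at -0.139 to -0.000258 in WB311. The main fit was not paired, and the plate number was a block in alternative fits only. Plates 1 and 3 of WB-F344 also correlated across numbers (0.581 and 0.605). Every column was matched to a sample, with 0 left over. A further gene list that was fitted is not reported here.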

Additional observations from a re-analysis of the deposited data

Results flagged for a closer look

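For 6 genes the response to rapamycin differed between the lines by the test of the difference itself. The response in WB311 minus that in WB-F344 was 2.17 for Smtnl2, 1.86 for Rhpn2 and -2.36 for Sorbs2 on the log2 scale. It was 0.38 for Csrp2 (0.378), 0.38 for Tpm1 (0.375) and -0.47 for Cnn2. Of these, Smtnl2 was called in both lines, with opposite signs, and the others were called in WB-F344 only, except Tpm1, which was called in neither line by its brightest probe set. Rapamycin-treated WB-F344 had Rhpn2 intensities below 100, so that its size is rough.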

How the results depend on the processing

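The comparisons of the lines were stable in their counts: no alternative moved the counts of genes lower or higher in WB311 by over 1.5 times, and leaving out single arrays gave 21 to 22 lower and 5 to 7 higher with vehicle, and 20 to 21 and 6 to 7 with rapamycin. The sign of Tpm1 turned with the mean over all its probe sets, to -0.274 with vehicle and -0.032 with rapamycin (adjusted p = 0.61). Of 1382 alternative values of the 71 calls, 1311 kept direction and call, 69 lost the call and 2 turned.

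The counts for rapamycin depended more on the settings, and the cause was not tested. In WB-F344, rises (4) became 9 with cyclic loess, 7 with array weights and 8 without both plates numbered 2, and 4 to 10 when single arrays were left out, 10 being without vehicle plate 2. Falls (3) became 5 with no fold threshold, 5 with the replicate block within lines, 5 without both plates numbered 2, 6 with the mean over probe sets, and 3 to 7 without single arrays, 7 being without rapamycin plate 2. In WB311, rises (2) became 5 with the methods' t-test, 7 with that test after the fold threshold (an alternative added after seeing the data), 7 with only the WB311 arrays, 6 with array weights, 7 with the replicate block within lines, 7 without both WB-F344 plates numbered 2, 1 with the mean over probe sets, and 1 to 2 without single arrays. For the difference between the responses, the genes above 0 (4) became 2 with no filter on intensity and 2 to 5 without single arrays. Those below 0 (2) became 5 with cyclic loess, 4 with array weights, 4 without both plates numbered 2 and 1 to 3 without single arrays. Over all genes tested, leaving out both plates numbered 2 took differences above 0 from 750 to 1332 and those below 0 from 335 to 603. Cyclic loess took rises over all genes in WB-F344 from 634 to 936 and differences below 0 from 335 to 529. For array weights, the t-tests, the block fits and the fit of only the WB311 arrays, counts over all genes are not given here. Under these settings a gain among the actin genes cannot be told from a general gain in calls. The replicate block within lines added Pdlim7 (0.29, adjusted p = 0.0229) and Sorbs3 (0.53, adjusted p = 0.0188) to the differences.

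Same-numbered plates of WB311 did not deviate together, so that there the plates share only a number. Scaling moved the centre: of all genes called in WB-F344, 69.1% fell, against 52.6% with cyclic loess and 76.1% with centred arrays, and of the differences 30.9% were below 0, against 45.8% and 25.7%. Requiring 100 in every group compared left Tagln, Pdlim1, Des and Rhpn2 untested where 1 group was dim.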
